A study of Mus musculus with 2 samples.

Results

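A set of 10 genes around the stearoyl-CoA desaturases and the liver X receptors (LXRs) was described in mouse CD4 T cells, cultured to become pathogenic Th17 cells (labelled pTh17) or non-pathogenic Th17 cells (npTh17). The set holds the desaturase genes Scd1, Scd2, Fads1 and Fads2, the lipogenic regulators Mid1ip1 and Srebf1, the LXR target genes Abca1, Abcg1 and Mylip, and Nr1h2, which encodes the receptor LXRβ. They were found by symbol among 22036 features with an Ensembl gene identifier, and all 10 were in the table. The set was chosen by the count ratio of pTh17 over npTh17 cells, after Scd1, Scd2 and Mid1ip1 had stood out in pTh17 cells, so the ratios below are a description and carry no test.

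The T cells were taken from wild-type mice, from their spleens and lymph nodes. Both cultures stood on plates coated with 10 μg/mL anti-CD3 plus 5 μg/mL anti-CD28 and held IL-6 at 20 ng/mL and antibodies to IFNγ and IL-4. Activin A was added at 20 ng/mL to give pTh17 cells, and recombinant TGFβ1 at 2 ng/mL to give npTh17 cells, so the TGF-β family ligand and its dose differed. Cells were lysed after 24 h, and each culture gave 1 library. There is thus no replicate check, and every difference is one between these 2 libraries.

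LXRs are nuclear receptors that are switched on by oxysterols, the oxidised forms of cholesterol. Together with a retinoid X receptor partner they bind DNA at a pair of hexamers spaced as a direct repeat called DR4, and they raise genes of cholesterol export and fatty acid synthesis. SREBP-1, the product of Srebf1, carries part of this lipogenic response, and the SCD enzymes then turn saturated fatty acids into monounsaturated ones. In mouse T cells, LXR activation is known to restrain Th17 differentiation, and the balance of fatty acid desaturation has been linked to how pathogenic Th17 cells are.

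The promoter windows of the members, from 250 bases before to 50 bases after a transcription start, were read from RefSeq on GRCm38.p6, the assembly also named mm10. Windows were found for 6 of the 10 genes, with 8 windows in all, since Srebf1 had 3. Scd1, Scd2, Fads1 and Abcg1 had no entry in the set of windows used. The 250 bases before the start of Abca1 and before the downstream start of Srebf1 are shown because they hold the DR4 letters. Each is written 5′ to 3′ on the strand of the gene, and capitals mark a match to DR4 or to the CCAAT letters bound by NF-Y, a factor that works with SREBPs.
Abca1, chr4:53159896-53160145, minus strand: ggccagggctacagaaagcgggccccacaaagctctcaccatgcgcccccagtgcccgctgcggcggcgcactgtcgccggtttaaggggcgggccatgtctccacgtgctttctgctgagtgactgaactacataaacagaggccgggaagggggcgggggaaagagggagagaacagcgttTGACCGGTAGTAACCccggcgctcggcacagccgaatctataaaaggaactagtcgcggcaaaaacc
Srebf1, chr11:60210472-60210721, minus strand: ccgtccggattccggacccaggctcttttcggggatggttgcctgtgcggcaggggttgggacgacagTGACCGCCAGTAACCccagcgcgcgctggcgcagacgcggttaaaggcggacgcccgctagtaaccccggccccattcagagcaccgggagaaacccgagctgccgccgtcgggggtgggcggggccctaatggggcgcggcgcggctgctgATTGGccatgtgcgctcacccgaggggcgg

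The DR4 pattern searched was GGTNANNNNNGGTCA on both strands, in which N is any base. It stood in 68 of the 32851 promoter windows available, which covered 27025 genes, or 0.207%. In Abca1, which encodes a cholesterol exporter, the match lay 67 to 53 bases before the start (chr4:53159948-53159962), and in Srebf1 it lay 182 to 168 bases before the start (chr11:60210639-60210653). Among measured genes outside the set, the windows of Fasn, the fatty acid synthase gene, and Il23r, the IL-23 receptor gene, also held a match, and these genes were chosen after their values were seen. The matches are set side by side to show how alike they are, each on the strand that holds the match, which in these 4 genes is opposite to the gene, with 5 flanking bases on each side and capitals for the repeated GGTNA and GGTCA letters. In the promoters above they therefore stand as the reverse complement.
Abca1: gccggGGTTActaccGGTCAaacgc
Srebf1: gctggGGTTActggcGGTCActgtc
Fasn: ggcggGGTTActaccGGTCAtcgtg
Il23r: aaacaGGTCAatggtGGTCAtgcac
The Abca1 and Fasn matches had the same 15 letters. A match is only a run of letters, and binding was not measured here. The windows of Mid1ip1, Fads2, Nr1h2 and Mylip and the other two Srebf1 windows held no DR4 match. No member window held the SREBP element letters TCACNCCAC, which stood in 1.24% of all windows. CCAAT, in either direction, stood in 37.4% of all windows, in the Mylip window at 3 places, and in 2 of the 3 Srebf1 windows.

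A gene counted as measured if it averaged at least 1 CPM (its count scaled to library size), which left 10597 genes. It was called higher in a library at a log2 ratio of at least 1 with a prior count of 1, that is, past 2-fold. By this rule 238 genes (2.25%) were higher in pTh17 cells and 207 (1.95%) in npTh17 cells, and the central 90% of genes lay between log2 ratios of -0.63 and 0.70. The libraries held 30877656 counts on named genes for pTh17 cells and 33470161 for npTh17 cells. The 6 T cell markers listed summed to 1410 CPM in pTh17 cells, against 1573 CPM in npTh17 cells. The 6 macrophage markers summed to 3.78 CPM in pTh17 cells, against 4.58 CPM in npTh17 cells, most of it Cd68, with the defining genes Adgre1, Csf1r and Cd14 at 0 in both, which allows up to 0.0970 CPM in pTh17 and 0.0898 CPM in npTh17 cells. The 5 dendritic cell markers summed to 0.129 CPM in pTh17 cells, against 0.838 CPM in npTh17 cells, and the 5 B cell markers to 0.808 CPM in pTh17 cells, against 0.180 CPM in npTh17 cells, with Flt3, Clec9a and Pax5 at 0 in both. The lists for CD8 T and NK cells, erythroid cells and platelets, and stromal and fat cells summed to between 1.65 and 8.18 CPM in pTh17 cells, against 1.89 to 8.77 CPM in npTh17 cells. The myeloid integrin gene Itgam had no count in pTh17 cells, against 24 in npTh17 cells, and Itgax had none in pTh17 cells, against 20 in npTh17 cells. The part of such cells in the results was not tested. In bulk RNA, fewer cells of a type and less RNA per cell cannot be told apart.

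All 10 members were measured, 9 of them with at least 1 CPM in both libraries, and Scd1 through the pTh17 library alone. Of the 10, 6 were past 2-fold in pTh17 cells, against 2.25% of all measured genes, and 0 were past 2-fold in npTh17 cells, against 1.95%. Those 6 were Scd1, Scd2, Mid1ip1, Fads2, Abca1 and Abcg1. In all, 9 members had a ratio above 1, as had 49.4% of all genes. The 3 genes for which the set was picked were at least 4-fold higher, as were 0.359% of all genes. Of the other 7 members, 3 were past 2-fold, and their median log2 ratio was 0.36. Folds are the ratio of CPM, pTh17 over npTh17, with a 95% interval in brackets that covers counting error only.

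**Figure D1:**
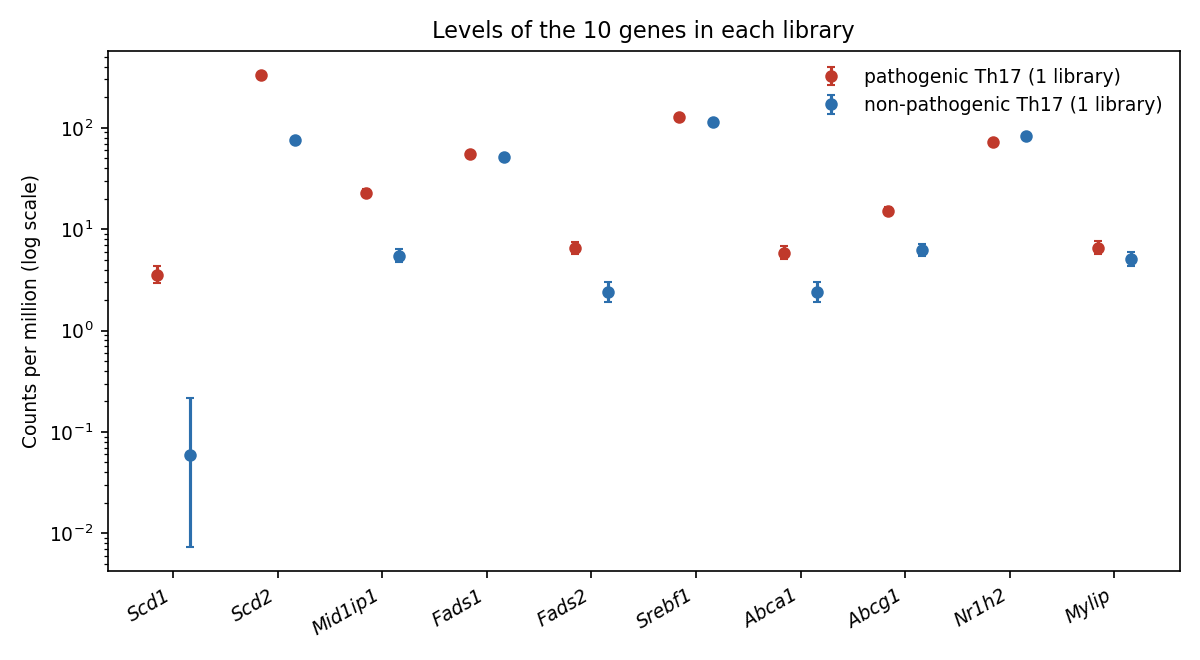
CPM (log scale) of the 10 genes in the pathogenic Th17 library (red, left of each pair) and the non-pathogenic Th17 library (blue, right), 1 library each; bars are exact 95% Poisson counting intervals. Scd2 is the most abundant of the 10 by CPM in pTh17 cells, at 329.8, and Scd1 sits at 0.0598 in npTh17 cells.

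Scd2 encodes a stearoyl-CoA desaturase that is widely expressed outside the liver, and it was the main Scd gene in both libraries. It had 10200 counts, or 329.8 CPM, in pTh17 cells, against 2544 counts, or 76.1 CPM, in npTh17 cells, a ratio of 4.33-fold (4.15 to 4.53). Among the 4477 genes that averaged 50 CPM or more, 3 had a ratio this high, Scd2 included. The others were Raver1 at 5.25-fold and Sept2 at 6.39-fold, and each overlaps a further counted feature on the same strand. Whether such an overlap affected their counts was not tested. None of the 10 members overlaps a counted gene on its own strand. The 5 genes with a log2 ratio nearest to that of Scd2 in this range, over the 2 libraries, were Raver1, Xpo4, Sept2, Zc3h11a and Lif. Of these Lif, a cytokine gene of the IL-6 family, was the one with no such overlap, with 7458 counts in pTh17 cells, against 3132 in npTh17 cells, or 2.57-fold (2.47 to 2.68).

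Scd1 encodes the desaturase best known from liver and fat, and it was nearly silent in npTh17 cells. It had 110 counts in pTh17 cells, against 2 in npTh17 cells, a 59.4-fold ratio whose interval ran from 16.1 to 497. Its log2 ratio of 5.30 with a prior count of 1 stood at place 7 of 10597 genes, and with a prior count of 5 it was 4.11. Per transcript length its level was 0.643 FPKM in pTh17 cells, against 0.00744 FPKM in npTh17 cells (FPKM, fragments relative to transcript length and depth). Scd2 had 53.0 FPKM in pTh17 cells, against 12.3 FPKM in npTh17 cells.

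The 4 Scd genes lie in one stretch of chromosome 19, in the order Scd3 (44203269 to 44244016 on GRCm38, as in GENCODE M21), Scd2 (44293674 to 44306864), Scd4 (44333092 to 44346743) and Scd1 (44394455 to 44407879, on the other strand). Scd3 had 0 counts in both libraries, and Scd4 had 8 counts in pTh17 cells, against 4 in npTh17 cells, a ratio of 2.16 (0.579 to 9.81). Scd2 made up 98.7% of the summed FPKM of the family in pTh17 cells and 99.7% in npTh17 cells. Counts summed over the family were 10318 in pTh17 cells, against 2550 in npTh17 cells, or 4.37-fold (4.19 to 4.57).

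Because Scd1 and Scd2 are close paralogs, reads of the abundant gene could be counted for the rare one. Of the 50-base words in Scd2 transcripts of GENCODE M21, 2.655% also stood in Scd1 transcripts, and of the 100-base words 0.879%. In the other direction, the shares of Scd1 words that stood in Scd2 transcripts were 2.97% and 0.982%. Scd1 counts came to 1.08% of Scd2 counts in pTh17 cells and 0.0786% in npTh17 cells, the latter on 2 Scd1 counts. The handling of reads that map to both genes is not stated, so the level of Scd1 is uncertain. How many of its counts came from Scd2 reads was not tested.

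**Figure D2:**
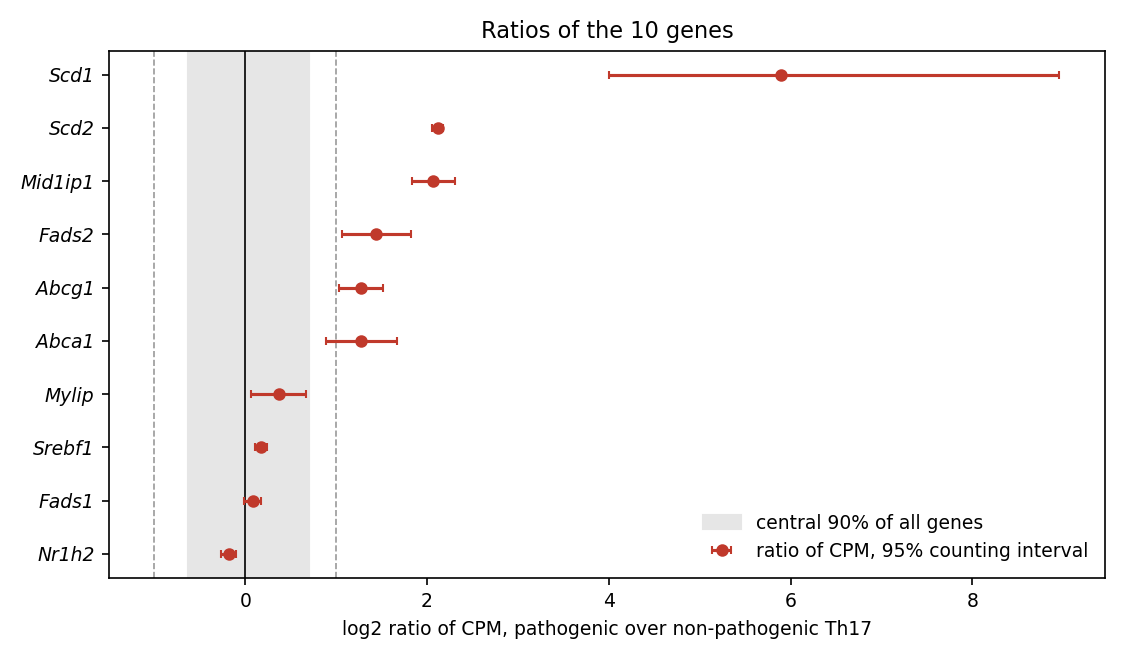
Ratio of CPM, pathogenic over non-pathogenic Th17, on the log2 scale for each of the 10 genes (1 library per condition); bars are 95% counting intervals, dashed lines mark 2-fold, and the grey band holds the central 90% of all measured genes. Of the 10 genes, 6 lie to the right of the 2-fold line, with the interval of Abca1 reaching below it, and 4 lie inside the band.

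Mid1ip1, on the X chromosome (10715013 to 10719690), encodes a protein that binds acetyl-CoA carboxylase, the enzyme of the entry step of fatty acid synthesis, and promotes its assembly into active filaments. It had 710 counts, or 23.0 CPM, in pTh17 cells, against 183 counts, or 5.48 CPM, in npTh17 cells, a ratio of 4.19-fold (3.56 to 4.96). Noncoding genes annotated on its other strand were not among the counted features. Its close relative Thrsp had 0 counts in both libraries. The carboxylase gene Acaca itself was at 186 CPM in pTh17 cells, against 145 CPM in npTh17 cells, or 1.28-fold (1.23 to 1.33).

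The polyunsaturated fatty acid desaturases differed from one another. Fads2, the enzyme of the first desaturation step, had 203 counts in pTh17 cells, against 81 in npTh17 cells, a ratio of 2.71-fold (2.08 to 3.55). Fads1, the enzyme of a later step in the same route, had 1699 counts, or 54.9 CPM, in pTh17 cells, against 1736 counts, or 51.9 CPM, in npTh17 cells, and its ratio of 1.06 (0.989 to 1.13) had an interval that held 1. The intervals of these neighbouring genes on chromosome 19 did not overlap. Fads1 was the more abundant per length, at 13.9 FPKM in pTh17 cells, against 13.2 FPKM in npTh17 cells, while Fads2 was at 3.81 FPKM in pTh17 cells, against 1.41 FPKM in npTh17 cells. Fads2 made up 21.4% of the summed Fads1, Fads2 and Fads3 FPKM in pTh17 cells and 9.60% in npTh17 cells. Of the summed counts of these genes, Fads2 made up 10.6% in pTh17 cells and 4.45% in npTh17 cells. Fads3 had 11 counts in pTh17 cells, against 4 in npTh17 cells, a ratio of 2.97 (0.881 to 12.8).

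Srebf1, which encodes the lipogenic transcription factor SREBP-1, had a ratio near 1. It had 3947 counts, or 128 CPM, in pTh17 cells, against 3785 counts, or 113 CPM, in npTh17 cells, a ratio of 1.13-fold (1.08 to 1.18). The counts are per gene, so the transcripts from its separate starts, of which the downstream one carries the DR4 letters shown above, were added together. Its end overlaps Rai1, a counted gene on the other strand, with 3573 counts in pTh17 cells, against 3791 in npTh17 cells, and use of strand in counting is not stated.

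Both LXR target genes of cholesterol export were higher in pTh17 cells, with ratios that were equal after rounding. Abca1 (chromosome 4, 53030787 to 53159895), which passes cholesterol to lipid-poor apolipoprotein, had 181 counts in pTh17 cells, against 81 in npTh17 cells, a ratio of 2.41-fold (1.85 to 3.18). Abcg1 (chromosome 17, 31057675 to 31117988), which feeds cholesterol to mature lipoprotein particles, had 467 counts in pTh17 cells, against 209 in npTh17 cells, a ratio of 2.41-fold (2.05 to 2.86). Per length Abcg1 was the more abundant, at 3.66 FPKM in pTh17 cells, against 1.52 FPKM in npTh17 cells, while Abca1 was at 0.498 FPKM in pTh17 cells, against 0.205 FPKM in npTh17 cells.

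Mylip encodes a ubiquitin ligase through which LXRs limit cholesterol uptake. It had 204 counts in pTh17 cells, against 171 in npTh17 cells, a ratio of 1.29-fold (1.05 to 1.59). If each sequenced fragment had been counted at both ends, the interval would be 0.958 to 1.74 and would hold 1. Such double counting is possible, since in pTh17 cells 287 named features had a count of 2 and 84 a count of 1, and in npTh17 cells 293 had a count of 2 and 67 a count of 1. Among the other 9 members, the wider interval held 1 for Fads1 alone.

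The receptor gene Nr1h2 was the one member that was lower in pTh17 cells. It had 2243 counts, or 72.5 CPM, in pTh17 cells, against 2753 counts, or 82.4 CPM, in npTh17 cells, a ratio of 0.881 (0.832 to 0.931). Nr1h3, the gene of LXRα, stood at 0.143 FPKM in pTh17 cells, against 0.176 FPKM in npTh17 cells, so Nr1h2 was the main LXR transcript in both libraries. Intervals that leave out 1 were common at this depth: 34.0% of all genes had an interval wholly below 1, as had 1 member, and 33.0% had one wholly above 1, as had 8 members.

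Per transcript length, the order of the members in pTh17 cells was Scd2, Nr1h2 at 35.2 FPKM, Srebf1 at 26.4 FPKM, Fads1, Mid1ip1 at 9.94 FPKM, Fads2, Abcg1, Mylip at 1.89 FPKM, Scd1 and Abca1. In npTh17 cells Nr1h2 came first at 39.9 FPKM, before Srebf1 at 23.4 FPKM, Fads1, Scd2, Mid1ip1 at 2.36 FPKM, Abcg1, Mylip at 1.46 FPKM, Fads2, Abca1 and Scd1. With 1 library per condition, no spread is known that would say which neighbours in these orders differ.

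**Figure D3:**
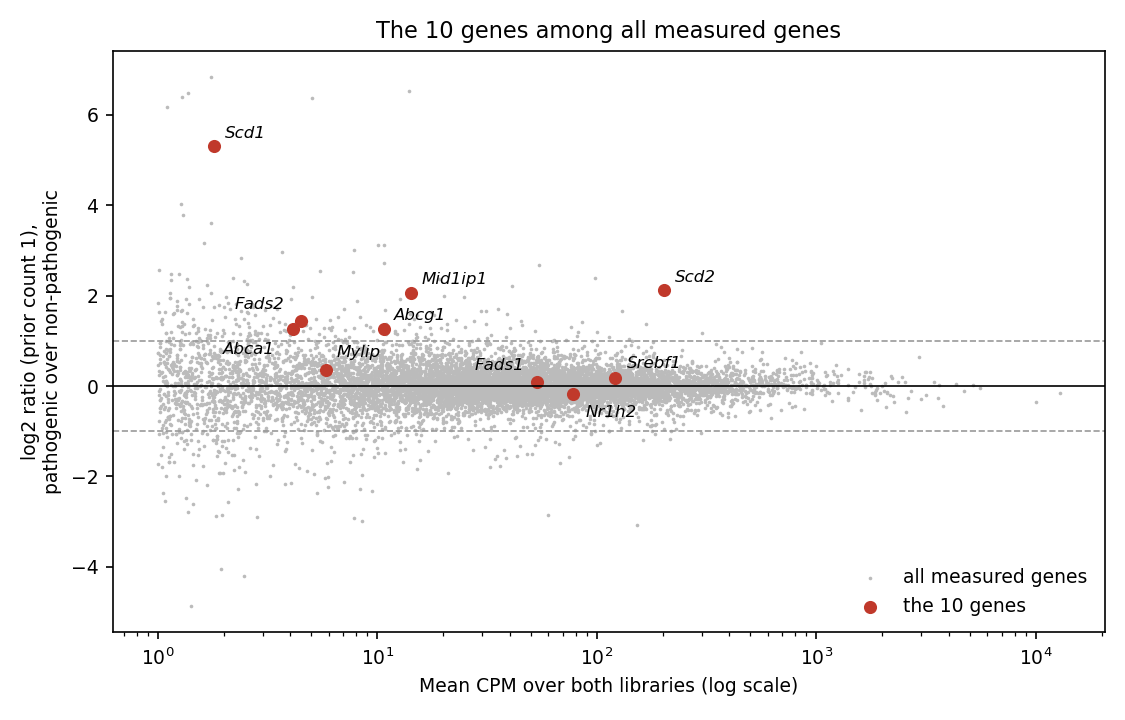
Log2 ratio with a prior count of 1, pathogenic over non-pathogenic Th17, against mean CPM over both libraries (log scale) for 10597 measured genes (grey) and the 10 genes (red); dashed lines mark 2-fold. Scd2, which was picked for its ratio, is 1 of 17 genes averaging at least 50 CPM that were past 2-fold in pTh17 cells. Of these, 3 had a ratio at least as high as that of Scd2, itself included. Srebf1, Fads1 and Nr1h2 lie within the main cloud.

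The remaining LXR target genes went both ways. Of 18 genes listed as LXR targets, 12 were measured, 6 of them members. The 6 measured non-members had a median log2 ratio of -0.07, against -0.0045 for all genes. Of them, 1 was past 2-fold in pTh17 cells and 0 in npTh17 cells, against 2.25% and 1.95% of all measured genes. That gene was Cd5l, which encodes a secreted lipid-binding protein that mouse studies link to the non-pathogenic Th17 state, with 637 counts in pTh17 cells, against 311 in npTh17 cells, a ratio of 2.21-fold (1.93 to 2.54). Arl4c, a small GTPase gene, was at 1.56-fold (1.36 to 1.78). Pltp, a phospholipid transfer protein gene, had 88 counts in pTh17 cells, against 128 in npTh17 cells, a ratio of 0.743 (0.560 to 0.982), and Smpdl3a, a phosphodiesterase gene, had a ratio of 0.805 (0.586 to 1.10). Abcg5, Apoc1, Lpl and Mertk had 0 counts in both libraries.

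Of the 61 genes with the DR4 letters in a window, 13 were measured. Abca1 and Il23r were past 2-fold in pTh17 cells, 0 were in npTh17 cells, and the median log2 ratio of the 13 was 0.36. Among all 8420 measured genes with a window, 152 (1.81%) were past 2-fold in pTh17 cells and 152 in npTh17 cells, and the median was -0.0050. This list was drawn up after the members' values were known and holds Abca1 and Srebf1 themselves. Il23r had 395 counts in pTh17 cells, against 115 in npTh17 cells, or 3.71-fold, and Fasn was at 1.12-fold (1.10 to 1.14).

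Among LXR partners and cofactors, 7 non-members were measured and 0 passed 2-fold in either direction. Of all measured genes, 2.25% were past 2-fold in pTh17 and 1.95% in npTh17 cells. Rxra, a retinoid X receptor gene, was at 1.41-fold (1.26 to 1.58) and Rxrb at 1.27-fold (1.20 to 1.35). Ncor1, a corepressor gene, had a ratio of 0.786 (0.765 to 0.808), and Ncoa2, a coactivator gene, one of 0.851 (0.813 to 0.890).

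Among genes that make, sense or handle oxysterols, 7 of 12 were measured. Of these, 2 were past 2-fold in pTh17 cells, against 2.25% of all measured genes, and 0 in npTh17 cells, against 1.95%. Gpr183, the receptor that steers T cells along oxysterol gradients, had 995 counts in pTh17 cells, against 269 in npTh17 cells, a ratio of 4.00-fold (3.49 to 4.59). Hsd3b7, an enzyme that degrades its ligand, had 128 counts in pTh17 cells, against 46 in npTh17 cells, a ratio of 3.01-fold (2.13 to 4.31). Ch25h, which makes an LXR-activating oxysterol, was under 1 CPM, with 22 counts in pTh17 cells, against 12 in npTh17 cells and a ratio of 1.98 (0.939 to 4.39). Of the lysosomal cholesterol exporters, Npc2 was at 1.49-fold (1.43 to 1.56) and Npc1 at a ratio of 0.636 (0.590 to 0.686).

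No measured enzyme gene listed for fatty acid or cholesterol synthesis passed 2-fold outside the members. Of all measured genes, 2.25% were past 2-fold in pTh17 and 1.95% in npTh17 cells, so lists this short would hold few. Of 15 measured non-members of the fatty acid synthesis and elongation list, 0 passed 2-fold in either direction, with a median log2 ratio of -0.04. Elovl6, which lengthens palmitate to the stearate that SCD enzymes use, was at 35.7 CPM in pTh17 cells, against 27.3 CPM in npTh17 cells, or 1.31-fold (1.20 to 1.43). Elovl4 was at 1.69-fold (0.995 to 2.91) on 39 counts in pTh17 cells, against 25 in npTh17 cells, Elovl7 at 1.61-fold (1.10 to 2.38), and Acacb, the mitochondrial carboxylase gene, at a ratio of 0.618 (0.398 to 0.945). Of 21 measured genes of cholesterol synthesis and uptake, 0 passed 2-fold, with a median of 0.05. Stard4, a sterol carrier gene, was at 1.49-fold (1.42 to 1.57). Of the enzymes of the sterol route, Pmvk had 656 counts in pTh17 cells, against 474 in npTh17 cells, and Lss was at 1.47-fold (1.37 to 1.57).

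In the list named SREBP control, which also holds Srebf2 and genes of glucose-sensing factors, 8 non-members were measured. Their median log2 ratio was -0.09, and 0 passed 2-fold, against 2.25% of all measured genes in pTh17 and 1.95% in npTh17 cells. Mlx, the dimer partner of a glucose-sensing lipogenic factor, had a ratio of 0.710 (0.657 to 0.767) and Mlxip one of 1.23 (1.16 to 1.31). Scap and Mbtps2, which take part in the processing of SREBPs, had ratios of 0.875 (0.838 to 0.913) and 0.884 (0.828 to 0.944).

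Desaturases outside the members had no common direction. Of the 3 measured, 0 were past 2-fold, against 2.25% of all measured genes in pTh17 and 1.95% in npTh17 cells. Fads6 was at 1.61-fold (1.42 to 1.82), Degs1, the ceramide desaturase gene, at 76.4 CPM in pTh17 cells, against 76.6 CPM in npTh17 cells, and Degs2 at a ratio of 0.611 (0.362 to 1.01).

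In the list of acyl-CoA and glycerolipid synthesis, the 19 measured genes had a median log2 ratio of 0.11. Of these, 1 was past 2-fold in pTh17 cells and 0 in npTh17 cells, against 2.25% and 1.95% of all measured genes. That gene was Mboat2, a lysophospholipid acyltransferase gene, with 112 counts in pTh17 cells, against 59 in npTh17 cells, a ratio of 2.05-fold (1.48 to 2.86). Its log2 ratio was 1.02 from counts but 2.26 from FPKM. Agpat4, another acyltransferase gene, lay just under the threshold at 1.98-fold (1.76 to 2.25). Acsl1, which activates fatty acids, was at 1.42-fold (1.27 to 1.58), while Dgat2, which makes triglyceride, had a ratio of 0.684 (0.539 to 0.865).

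In the list of PPARs and fatty acid oxidation, the carnitine palmitoyltransferase genes Cpt1a and Cpt1b went opposite ways. Cpt1a, the gate for fatty acid entry into mitochondria, had 636 counts in pTh17 cells, against 1832 in npTh17 cells, a ratio of 0.375 (0.342 to 0.411). Cpt1b, its muscle-type relative, had 66 counts in pTh17 cells, against 18 in npTh17 cells, a ratio of 3.96-fold (2.32 to 7.09). It reached 1 CPM in the pTh17 library alone, at 2.13 CPM, against 0.539 CPM in npTh17 cells. Cpt1a and Cpt1b were the 2 genes past 2-fold among the 12 measured. Of all measured genes, 2.25% were past 2-fold in pTh17 and 1.95% in npTh17 cells. Of the 12, 9 had a ratio below 1, with a median log2 ratio of -0.17. Hadhb and Etfdh, of the oxidation cycle and its electron transfer, had ratios of 0.759 (0.710 to 0.812) and 0.776 (0.723 to 0.833).

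**Figure D4:**
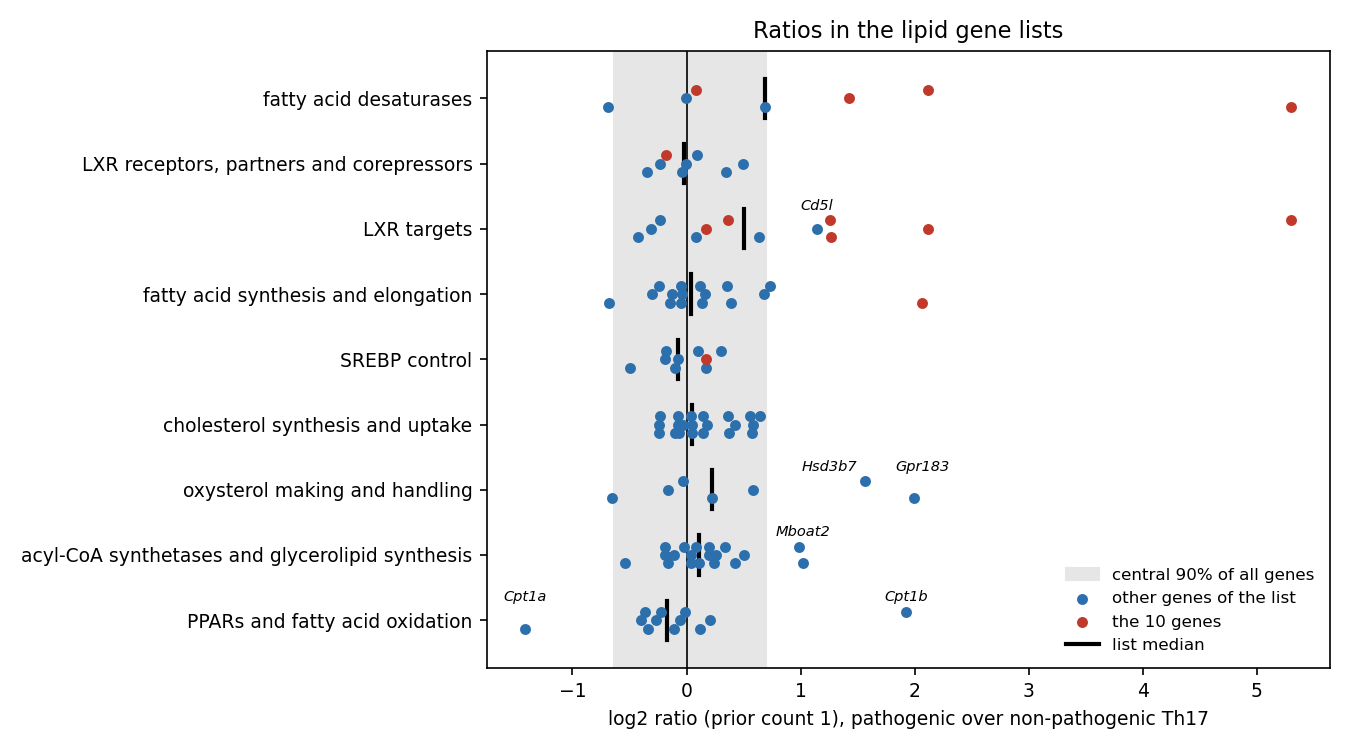
Log2 ratio with a prior count of 1, pathogenic over non-pathogenic Th17, of the measured genes in 9 lipid gene lists; red points are the 10 genes, blue points the other genes of each list, black bars the list medians with members included, and the grey band the central 90% of all measured genes. Outside the 10 genes, Gpr183, Cpt1b, Hsd3b7, Cd5l and Mboat2 lie above 2-fold and Cpt1a lies below.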

How the data were processed

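Messenger RNA was sequenced from 2 cultures of mouse CD4 T cells, 1 per condition. The authors deposited whole-number counts per gene and, for the same features, FPKM values, per the file headers. The submitters' processing notes name the build mm10. The aligner, the counter and the annotation used are not given here. Features with no gene identifier, 2.50% of counts in pTh17 and 2.90% in npTh17 cells, were left out.

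Library sizes were scaled by TMM (edgeR 4.0.16, R 4.3.3). The log2 ratio is that of CPM with a prior count of 1, and the fold is the CPM ratio without it. Intervals (95%) are exact Clopper-Pearson intervals for the share of a gene's counts found in pTh17 cells, computed with SciPy 1.17.1. They and the limit of 3 counts behind a count of 0 cover counting error only, as PCR copies were not told apart. With 1 library per condition there was no test and no p-value. The calculation was tested on simulated data. Alternatives were DESeq2 1.42.0 size factors, total counts, FPKM ratios, other filters and priors, halved counts and removal of a length and GC trend. Positions, transcripts and overlaps came from GENCODE M21, and promoter windows from RefSeq.

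The members and lists were chosen with earlier results of these data known. The text names all 10 members, up to 4 other genes with the largest ratios in each of 9 lists, defining genes under 1 CPM, and the 5 genes with a ratio nearest to that of Scd2. Acaca, Fasn and Il23r fall outside that rule and were added after their values were seen. Not each gene this rule selects is given in the text.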

Additional observations from a re-analysis of the deposited data

How the results depend on the processing

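The direction of the 10 members held under total-count scaling, DESeq2 size factors, a prior count of 5, FPKM ratios and removal of a length and GC trend. Of these 50 values, 49 lay within the counting interval of the reported ratio. The exception was Nr1h2, at a log2 ratio of -0.32 in place of -0.18 with the length and GC trend removed, and the cause was not tested. The number of genes past 2-fold depended on the filter. With no filter it was 1192 in pTh17 and 1136 in npTh17 cells, and with the filter raised to 5 CPM, which leaves out Scd1, Fads2 and Abca1, it was 96 in pTh17 and 101 in npTh17 cells. Some list medians, taken here with members included, changed sign, and the cause was not tested. That of LXR receptors and cofactors was 0.010 with the trend removed, in place of -0.022. Those of fatty acid synthesis and SREBP control were -0.041 and 0.010 with no filter, in place of 0.038 and -0.078. That of oxysterol genes was -0.028 with the 5 CPM filter, in place of 0.226. The other 32 of 36 list medians kept their sign. Depth limits Scd1 in npTh17 cells, where it had 2 counts in 33470161. No paired analysis was possible because each condition had 1 library.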
